A study of Mus musculus with 2 samples.

Results

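Footprints of the mitochondrial carrier family Slc25 were examined in active ribosome profiling of whole mouse brain. Members were the genes with an annotated protein-coding transcript and a symbol beginning with Slc25a, which gave 47 of the 45578 genes in the deposited table, or of its 21874 protein-coding genes. The material was brain of control mice of genotype Smn+/-; SMN2tg/0 (1 working copy of mouse Smn plus the human SMN2 transgene, Taiwanese line, congenic on FVB) at postnatal day 5. The labels give 1 group of 2 biological replicates, name no other condition, and do not say whether each replicate was 1 animal. Binomial p-values compare the reads of these libraries, allow for counting error alone, and do not measure the spread between replicates or animals. Both libraries carry the heterozygous Smn allele and the transgene, and no other genotype is compared here. RiboLace uses beads with a puromycin analogue to pull down translating ribosomes, whose protected RNA fragments (the footprints) are then sequenced. For each gene the values are those of a single transcript, the one with most counts over both replicates.

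Carriers of this family sit mostly in the inner mitochondrial membrane, where they exchange nucleotides, phosphate, keto acids, amino acids and cofactors between the cytosol and the matrix. They are made on cytosolic ribosomes, are built from a repeated module of paired transmembrane helices, and reach the inner membrane through the receptor TOM70 and the TIM22 translocase. In brain they supply ATP export from mitochondria, feed the malate-aspartate shuttle and move glutamate.

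The libraries held 343552 and 120282 gene-level counts, so that 1 count was worth 2.71 counts per 1000000 (CPM) in replicate 1 and 8.93 CPM in replicate 2, after scaling by edgeR's TMM method. The gap in depth, 2.86 times, sets how firmly low members can be read. Markers fitted the labelled tissue: the 5 neuronal markers had 2128 and 760 counts in sum, the 5 markers of astrocytes and radial glia 760 and 261, and the 5 of the oligodendrocyte lineage 178 and 57. Among other cells, 4 microglial markers had 56 and 16 counts and 3 endothelial markers 41 and 17. The erythroid list had 1063 and 350 counts, nearly all from globins, with Alas2 at 6 and 1 and Slc4a1 at 1 and 0. The muscle list had 79 and 25, mostly from Acta1, and the brown fat list 1 and 2. Of the liver list Alb and Apoa2 were at 0, while Ttr, which choroid plexus also makes, had 395 and 153. Only Tubb3 among these markers differed between the libraries (log2 ratio of replicate 2 over replicate 1 of 0.33, adjusted exact binomial p = 0.00365). Fewer cells of a type and fewer footprints per cell cannot be told apart in whole tissue.

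The family held 943 counts in replicate 1 and 273 in replicate 2. Its share of protein-coding counts was 0.324% ± 0.019 (SD, n = 2). Replicate 1 gave 0.337%, with a 95% Wilson interval of 0.317 to 0.36, and replicate 2 gave 0.310%, with 0.276 to 0.350. The intervals overlap. No molecular identifiers are recorded, so PCR copies may be among the reads, and all intervals and floors reflect counting error alone. A count was seen in either library for 38 members and in both for 25. The other 9 members, or 19.1%, had no count, against 33.8% of all protein-coding genes. A mean of at least 10 counts was reached by 10 members, or 21.3%, against 20.1% of protein-coding genes. Below that threshold, 9 members had 10 to 19 counts in sum and 19 had 1 to 9.

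Counts were concentrated in a few carriers. Slc25a4, Slc25a5 and Slc25a3 together made up 60.7% of the family in replicate 1 (57.5 to 63.7, Wilson) and 63.7% in the other library (57.9 to 69.2). The 10 members past the threshold held 83.1% and 83.5%. The 37 members below it shared the remaining 16.9% and 16.5%. By substrate, the carriers of adenine nucleotides and phosphate led, followed by those of aspartate and glutamate at 9.76% (8.02 to 11.8) and 8.42% (5.68 to 12.3). The nucleotide and cofactor carriers stood at 7.0% in replicate 1 and tied at 8.42% in replicate 2, as the plot of counts by substrate group shows.

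**Figure D1:**
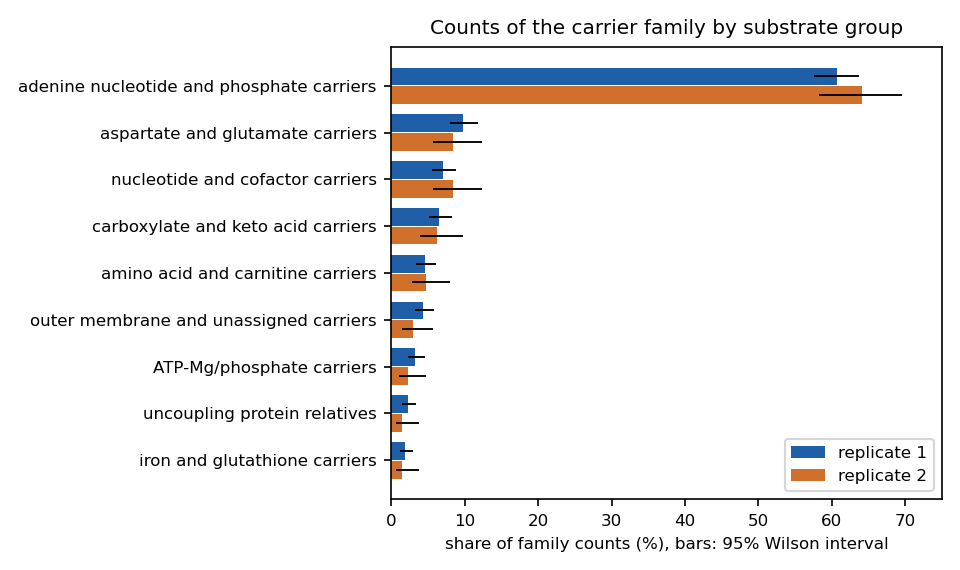
Share of the family's counts held by each substrate group (x axis, %), with 1 bar for each replicate and 95% Wilson intervals as black lines. The adenine nucleotide and phosphate carriers stand at 60.7% and 64.1%, and no other group exceeds 10% in either library, with 1 transcript counted per gene. Shares with isoforms summed were not computed, and Slc25a22 went from 29 and 5 to 298 and 54 counts by that sum.

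Levels of different genes were compared as footprint density, in CPM per kilobase of the coding sequence of the representative transcript. This could be given for 41 members, since for the other 6, Slc25a14, Slc25a37 and Slc25a40 among them, the representative transcript was not a protein-coding one. The median density over these 41 members was 16.9 in replicate 1 and 17.3 in replicate 2, against 4.75 and 3.66 over the 20265 protein-coding genes with a density. Among members past the threshold it was 81.5 and 75.9, against 62.6 and 60.4 for 4225 protein-coding genes past it. The threshold is on counts, so a shorter coding sequence passes it only at a higher density. Members are shorter at the median, at 957 nucleotides against 1167 on the longest coding isoform. How far length bears on this comparison was not tested.

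The adenine nucleotide translocators exchange matrix ATP for cytosolic ADP, and the phosphate carrier brings in the phosphate from which ATP is made. Slc25a4 (ENSMUSG00000031633), the translocator known from heart, muscle and brain, had 347 counts in replicate 1 and 120 in replicate 2. Its density was 1048 CPM per kilobase (95% exact Poisson interval 941 to 1165) and 1195 (990 to 1428), or 1121 ± 103 (SD, n = 2). That level stood at percentile 99.7 of protein-coding genes. Slc25a5 (ENSMUSG00000016319), the translocator of wide tissue distribution, had 114 and 30 counts and a density of 344 (284 to 414) and 299 (202 to 426). Slc25a3 (ENSMUSG00000061904), the phosphate carrier, had 111 and 24 counts and a density of 280.1 (230 to 337) and 199.5 (128 to 297). On the representative transcripts these 3 carriers ranked 1, 2 and 3 in both libraries. Slc25a4 and Slc25a5 encode proteins of equal length, 298 residues. Slc25a31, the translocator known from germ cells, had 0 counts in replicate 1 and 1 in replicate 2.

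Sequence upstream of these 3 genes is given because they carry most of the family's footprints. The stretches are the 250 bases before the annotated start, from RefSeq on GRCm38.p6, with the GC box GGGCGG or its complement CCGCCC in capitals. Slc25a4 is at chr8:46211063-46211312 on the minus strand, Slc25a5 at chrX:36795347-36795596 on the plus strand and Slc25a3 at chr10:91123968-91124217 on the minus strand.
Slc25a4: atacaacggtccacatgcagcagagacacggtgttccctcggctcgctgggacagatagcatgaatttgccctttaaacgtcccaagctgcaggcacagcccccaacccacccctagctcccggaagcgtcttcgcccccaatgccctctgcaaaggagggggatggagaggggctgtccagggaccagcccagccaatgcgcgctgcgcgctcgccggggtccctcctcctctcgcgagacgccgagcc
Slc25a5: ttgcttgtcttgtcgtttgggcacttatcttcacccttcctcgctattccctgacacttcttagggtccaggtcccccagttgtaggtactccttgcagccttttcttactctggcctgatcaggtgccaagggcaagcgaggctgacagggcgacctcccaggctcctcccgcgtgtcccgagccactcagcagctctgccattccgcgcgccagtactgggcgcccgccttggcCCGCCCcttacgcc
Slc25a3: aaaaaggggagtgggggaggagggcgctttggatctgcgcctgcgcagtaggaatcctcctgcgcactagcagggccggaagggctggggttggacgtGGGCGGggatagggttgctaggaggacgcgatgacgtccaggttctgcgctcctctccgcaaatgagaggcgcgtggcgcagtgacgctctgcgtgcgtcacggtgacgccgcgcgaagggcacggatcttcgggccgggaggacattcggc
The Slc25a5 and Slc25a3 stretches hold 1 such box each. The match of Slc25a4 lies in the 50 bases after the start, which were searched but are not printed. Over the full windows, from 250 bases before to 50 after a start and on both strands, 30 of the 36 members in the promoter table (83.3%) held a box in at least 1 window. The same held for 49.2% of 17492 RefSeq protein-coding genes and 38.2% of all 27025 genes in the table. Among members, the box was found for 8 of 9 past the count threshold, 19 of 21 below it with a count, and 3 of 6 with no count. Of protein-coding genes past the threshold 74.6% held one, and of those with no count 17.4%. Genes with several annotated starts have more windows, and a match is a description of letters, not a site.

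After the leading 3 carriers came members with densities from 47.3 to 84.0 CPM per kilobase in replicate 1 and from 28.4 to 125.6 in replicate 2. Slc25a17, the peroxisomal carrier of cofactors such as coenzyme A, had 28 and 13 counts and a density of 82.1 and 125.6 CPM per kilobase. The oxoglutarate-malate carrier Slc25a11 (27 and 9 counts) stood at 77.4 and 85.0. Slc25a1, the citrate carrier that exports carbon for lipid synthesis, had 29 and 7 counts, or 84.0 and 66.8. Slc25a22, a mitochondrial glutamate carrier, had 29 and 5 counts, or 80.9 and 45.9. Slc25a12, the calcium-regulated aspartate-glutamate carrier of the malate-aspartate shuttle, had 48 and 13 counts on a longer coding sequence, or 64.0 and 57.1. Slc25a46, an outer membrane protein tied to mitochondrial shape, had 33 and 4 counts, or 71.1 and 28.4. Slc25a44, a carrier of branched-chain amino acids, had 12 and 5 counts, or 47.3 and 65.0. Those values are for a transcript of 687 coding nucleotides. The longest coding isoform of Slc25a44, of 1002 nucleotides, had 11 and 2 counts, so its density and place depend on the isoform read.

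Among the 10 densest members, only Slc25a4 stood above its lower neighbour in both libraries, with 95% exact intervals of the density ratio above 1. The other 8 of the 9 neighbouring steps were not apart in both. Slc25a3 exceeded Slc25a17 3.41-fold in replicate 1 (2.24 to 5.36), but the 1.59-fold ratio in replicate 2 had an interval of 0.777 to 3.40. From Slc25a17 downward, no neighbouring step was apart in either library, as the plot of density by member shows. Members further apart in this order were not compared, so these steps do not show equal density along the run. Summing isoforms would multiply the count of Slc25a22 most among these 10, and would place Slc25a3 above Slc25a5, as described further on.

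**Figure D2:**
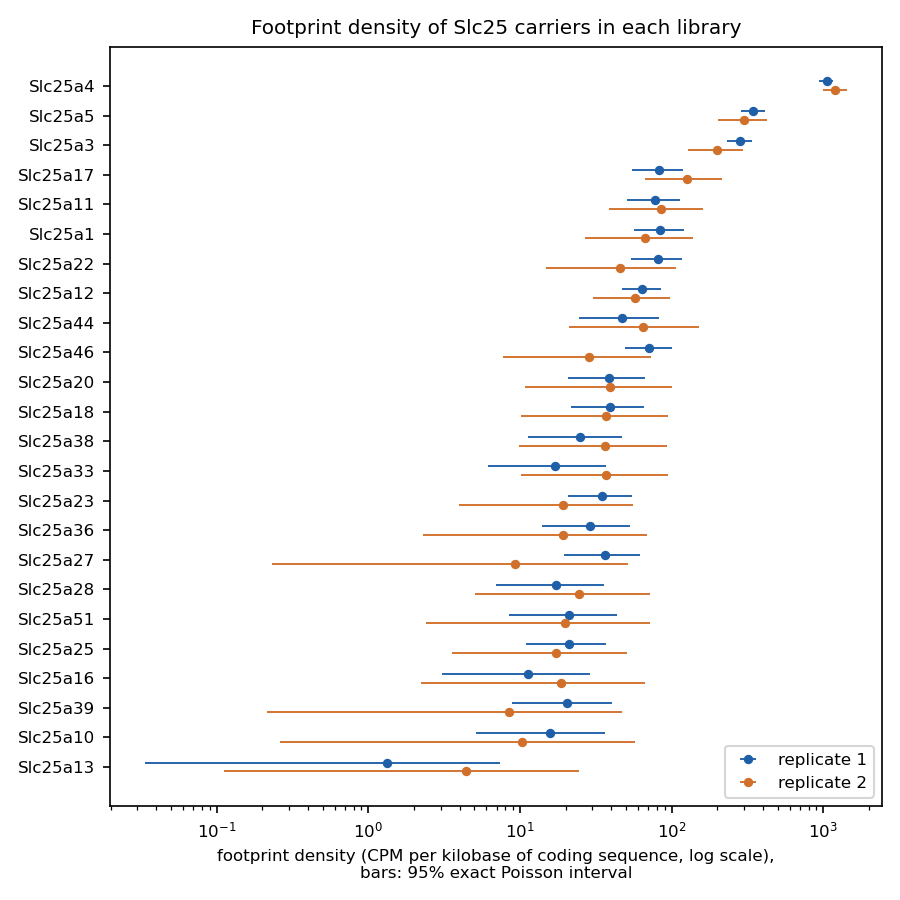
Footprint density of the 24 members with a density and a count in both libraries (x axis, CPM per kilobase of coding sequence, log scale; points are replicates, bars 95% exact Poisson intervals). Slc25a4 lies at 1048 and 1195, Slc25a5 and Slc25a3 between 199.5 and 344, and the bars of most other members overlap.

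Slc25a23, a calcium-dependent carrier of ATP-Mg and phosphate, was the last member past the threshold, with 18 and 3 counts. Just below it were Slc25a18 with 14 and 4, Slc25a20, the carnitine-acylcarnitine carrier of fatty acid oxidation, with 13 and 4, and Slc25a44. Slc25a25, of the same ATP-Mg group, had 12 and 3 counts, and Slc25a27, an uncoupling protein relative known from brain, had 13 and 1. Slc25a38, a glycine carrier needed for heme synthesis, had 9 and 4. The pyrimidine nucleotide carriers Slc25a36 and Slc25a33 had 10 and 2 and 6 and 4 counts. Slc25a28, the mitochondrial iron importer of non-erythroid cells, had 7 and 3. The remaining members with a count reached at most 9 in sum.

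The 9 members without a count were Slc25a2, Slc25a21, Slc25a24, Slc25a37, Slc25a41, Slc25a43, Slc25a47, Slc25a48 and Slc25a54. A count of 0 allows up to 3 counts, which is 8.13 CPM (0.00087% of gene counts) in replicate 1 and 26.8 CPM (0.0025%) in replicate 2. Slc25a37 is the iron importer of developing red cells. Its lack of counts stood beside globin messages of 343 to 362 counts per gene in replicate 1. A further 11 members were counted in replicate 1 only, with at most 5 counts each, and 2 in replicate 2 only, Slc25a34 with 4 counts and Slc25a31 with 1.

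Coding length is a shared feature of the family. The longest coding isoform of 41 members measured 798 to 1257 nucleotides, and the median over all 47 was 957, against 1167 over protein-coding genes, whose 10th and 90th percentiles were 459 and 3086. The other 6 members ran from 1404 to 2034 nucleotides. These were Slc25a12, Slc25a13, Slc25a23, Slc25a24, Slc25a25 and Slc25a54, and the first 5 are known to bear calcium-binding EF-hands ahead of the carrier domain. Their counts ranged from 48 and 13 in Slc25a12 to none in Slc25a24 and Slc25a54.

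Carriers with related substrates were compared within each library, as 11 pairs. A ratio could be formed on the representative transcripts in both libraries for 6 pairs, and for 3 of them the 95% exact interval excluded equality in both libraries. Slc25a4 exceeded Slc25a5 in density 3.04-fold in replicate 1 (2.46 to 3.8) and 4.00-fold in replicate 2 (2.66 to 6.18), a mean log2 ratio of 1.80 ± 0.28 (SD, n = 2). The aspartate-glutamate carrier Slc25a12 exceeded Slc25a13, its counterpart known from liver, 47.9-fold (8.20 to 1932) and 13-fold (1.95 to 552). Slc25a13 had only 1 count in each library, so the size of that ratio is loosely held. Slc25a11 exceeded the dicarboxylate carrier Slc25a10, at 5 and 1 counts, 4.94-fold (1.87 to 16.4) and 8.23-fold (1.14 to 361). On whole-transcript length in place of coding length, Slc25a12 over Slc25a13 no longer stood apart in replicate 2, at 6.39 (0.96 to 271), while the other 2 pairs did in both libraries.

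The glutamate carriers Slc25a22 and Slc25a18 differed 2.05-fold in replicate 1 (1.05 to 4.20), while in replicate 2 the ratio of 1.24 had an interval of 0.267 to 6.24. On whole-transcript length their ratio was 1.01 (0.515 to 2.06) in replicate 1 and 0.608 (0.131 to 3.06) in replicate 2. Summing isoforms moves the comparison the other way, with 298 and 54 counts for Slc25a22 and 14 and 4 for Slc25a18, which has 1 transcript. How these carriers compare thus depends on how isoforms are read. With isoforms summed, 4 pairs stood apart in both libraries, against 3 on the representative transcripts. Slc25a23 over Slc25a25 gave 1.65 (0.752 to 3.76) and 1.10 (0.147 to 8.22). For Slc25a36 over Slc25a33 the ratios were 1.71 (0.565 to 5.74) and 0.514 (0.047 to 3.59). These intervals are wide, so a difference of several fold was not detectable at this depth in replicate 2. The ornithine carriers Slc25a15 and Slc25a2, with 3 and 0 counts in sum, allow no ratio. When each gene was instead read from its longest coding isoform, the iron importer Slc25a28 had 7 and 3 counts and Slc25a37 none in either library. The 95% exact lower limit of their density ratio was 1.34 in replicate 1 and 0.384 in replicate 2, so they stood apart in replicate 1 only. On those isoforms the glutathione carrier Slc25a39 had 6 and 1 counts and its relative Slc25a40 had 1 and 0. The uncoupling protein relatives Slc25a14 and Slc25a27 had 5 and 13 counts in replicate 1 and 2 and 1 in replicate 2. Slc25a52 was not analysed here.

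**Figure D3:**
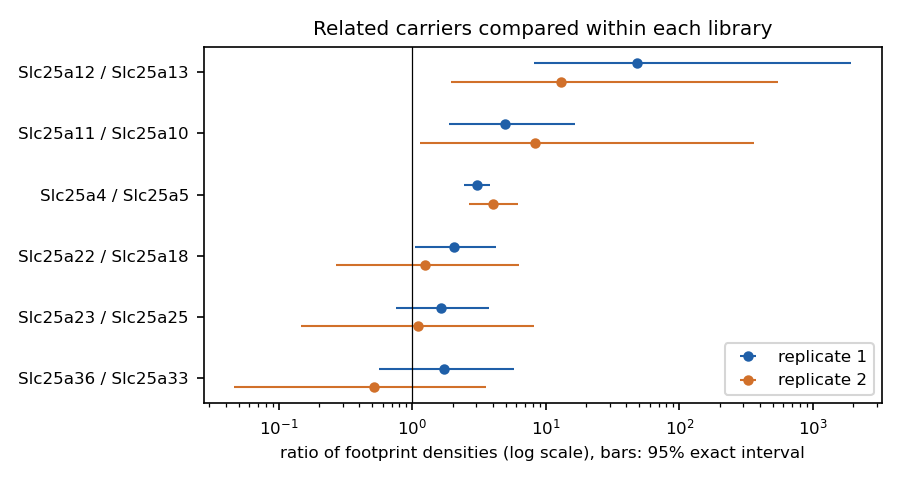
Ratio of footprint densities for 6 pairs of related carriers (x axis, log scale; points are replicates, bars 95% exact intervals, the line marks equality). The intervals of Slc25a12 over Slc25a13, Slc25a11 over Slc25a10 and Slc25a4 over Slc25a5 lie above 1 in both libraries, and those of the other 3 pairs include 1 in replicate 2.

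Agreement between the libraries was tested gene by gene with a 2-sided exact binomial test on counts, adjusted by the Benjamini-Hochberg method over the 5436 genes whose mean count reached 10. It compares the reads of these libraries, not conditions. Of the 10 members tested, 0 differed at an adjusted p under 0.05 and 0 at an unadjusted p under 0.05, where the test called 4.14% of all genes and 0.956% of the 4392 protein-coding genes. By direction, 3.99% of all genes were called higher and 0.147% lower in replicate 2, or 0.82% and 0.137% of protein-coding genes. The split of protein-coding genes, 36 higher and 6 lower, became 15 and 17 with library totals and 183 and 218 with isoforms summed. It kept its lean with TMM on coding genes alone (22 and 0) and with the longest coding isoform (31 and 5). The same held for a count in each library (16 and 5), a mean of 50 (17 and 4) and a preset coefficient of variation of 0.2 (7 and 1). At an unadjusted p under 0.05 the share of all genes was 9.6%. A count of 0 among 10 members is close to that background. Slc25a4 stood at 940 and 1072 CPM, or 1006 ± 92.8 (SD, n = 2), with a log2 ratio of 0.19 (counting SE 0.15, adjusted exact binomial p = 0.881). Slc25a5 stood at 309 and 268 CPM, with a log2 ratio of -0.20 (SE 0.29). Slc25a3 was at 301 and 214 CPM, a log2 ratio of -0.49 (SE 0.32). The most unequal member was Slc25a46, at 89.4 and 35.7 CPM and a log2 ratio of -1.30 (SE 0.74, unadjusted exact binomial p = 0.080, adjusted p = 0.655).

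As a linear ratio of replicate 2 over replicate 1, the 95% exact interval was 0.918 to 1.41 for Slc25a4, 0.560 to 1.31 for Slc25a5 and 0.438 to 1.12 for Slc25a3. For Slc25a46 it ran from 0.103 to 1.12. A change of 2-fold or more is thus outside the interval for Slc25a4, but not for Slc25a3 or Slc25a46. Of the 10 members, 3 were nominally higher and 7 lower in replicate 2. Their median log2 ratio was -0.27, against -0.02 over protein-coding genes and 0.0041 over all genes tested. Across the 10 members the levels on log2(CPM + 1) had a Pearson r of 0.939 and a Spearman rho of 0.756, and across 4392 protein-coding genes an r of 0.834 and a rho of 0.787. These points share libraries and depth, and genes are not independent replicates. The plot of the libraries against each other shows both sets.

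**Figure D4:**
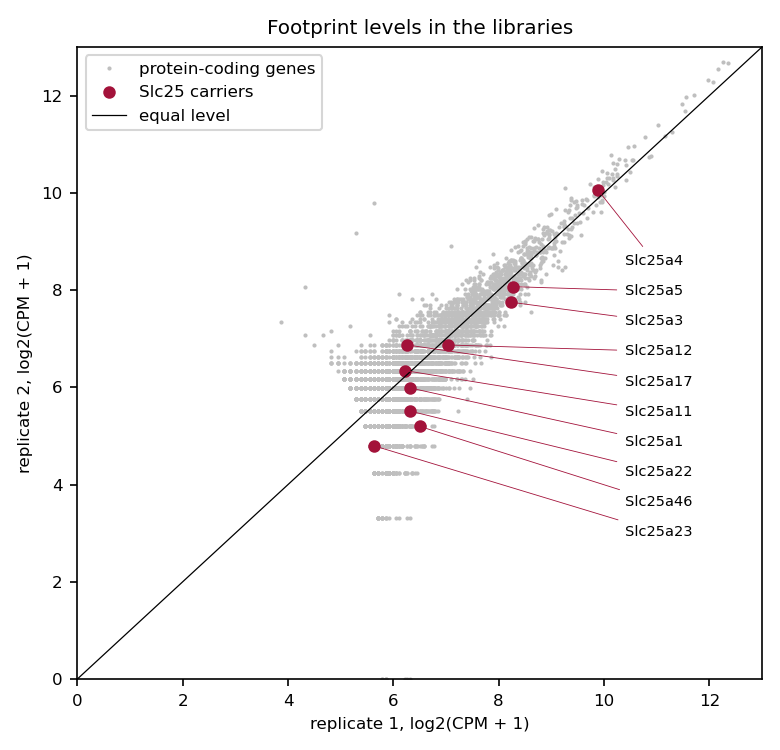
Footprint level in replicate 1 (x axis) against replicate 2 (y axis), both as log2(CPM + 1), for protein-coding genes past the count threshold (grey) and the 10 Slc25 members among them (red). The members lie within the cloud of coding genes, with Slc25a4 at the top and Slc25a46 farthest below the line of equal level.

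Isoforms bear on these values, since the 47 members have 223 annotated transcripts and overlapping transcripts received counts from the same stretch of message. For 8 members past the threshold with a transcript not classed as coding, the highest such transcript had 50% (Slc25a1) to 90.2% (Slc25a12) of the count of the representative one. The retained-intron transcript of Slc25a4 had 294 and 97 counts, beside 347 and 120. The 3 full-length coding isoforms of Slc25a3 had 111, 102 and 101 counts in replicate 1, and 24, 17 and 28 in replicate 2. Slc25a22 has 25 transcripts, which summed to 298 and 54 counts, against 29 and 5 on the representative one. Slc25a5, with 3 transcripts, summed to 221 and 67 and Slc25a4, with 2, to 641 and 217. Slc25a3, with 8 transcripts, summed to 545 and 128, above Slc25a5 in both libraries. By that sum Slc25a22 stood above Slc25a5 in replicate 1, so its place among the members depends on how isoforms are read. With isoforms summed, Slc25a22 had a log2 ratio of -0.68 and an adjusted exact binomial p of 0.0207, the only one of 18 members then tested to pass 0.05. That p is too small where a fragment was counted on several of the 25 overlapping transcripts. On the representative transcript the log2 ratio was -0.80 and the adjusted exact binomial p was 0.927.

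How a fragment matching several transcripts was counted is not given in the sources used here. Near-identical isoforms, with equal coding and 3' lengths and 5' regions within 20 nucleotides, were compared in replicate 1 by the squared difference of their counts over their sum, which averages 1 for independent counts and 0 for identical ones. The mean was 0.204 over 21 pairs in genes with 2 transcripts, 0.366 over 76 pairs in genes with 3 to 12, and 1.21 over 20 pairs in genes with 13 or more. Slc25a22-002 and Slc25a22-019, such a pair, had 26 and 21 counts. Slc25a44-003 had 10 and 2 counts and Slc25a44-002 had 4 and 6, at the same coding length. Their 5' regions, of 276 and 352 nucleotides, put them outside the definition of near-identical isoforms. Whether levels of members with many transcripts compare directly with those of members with few was not tested. A processed pseudogene of Slc25a5 was listed at 22 and 3 counts, and fragments of the pseudogene and its parent cannot be told apart here.

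Other carriers of the same superfamily carry other symbols. Of 5 such genes, 3 passed the threshold and 0 of these differed between the libraries. Mtch1, an outer membrane relative, was the densest, with 89 and 19 counts and a density of 206 and 145. Ucp2 had 17 and 6 counts, whereas Ucp1, the uncoupling protein of brown fat, had 0 and 1 and Ucp3 none. The TOM and TIM components that import carriers had 12 matched genes, of which 6 passed the threshold and 0 differed. Their median density was 92.5 and 85.6 CPM per kilobase, and Timm13, a small chaperone of the intermembrane space, was the densest at 245 and 372.

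ATP synthase, which works with the translocators and the phosphate carrier, had all 17 listed genes past the threshold, of which 0 differed between the libraries. Their median density was 529.8 and 413, and Atp5g3, a subunit of the membrane ring, was the densest at 916 and 1279. Slc25a4, at 1048 and 1195, lay nominally above every ATP synthase gene in replicate 1 and above all but Atp5g3 in replicate 2. No interval was computed for the ATP synthase genes, so whether Slc25a4 and Atp5g3 differ in either library was not tested. Slc25a5 and Slc25a3 lay below that median in both.

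Other transport proteins of the mitochondrial membranes had 19 genes, of which 12 were tested and 1 differed. Vdac1, the main outer membrane channel, was the densest at 461 and 545. Mpc1, a subunit of the mitochondrial pyruvate carrier, had 28 counts in replicate 1 and 0 in replicate 2 (adjusted exact binomial p = 0.0287). With its 0 set at 3 counts it was 2.83-fold lower in replicate 2, a value that leaves out counting error in replicate 1. Other coding isoforms of Mpc1 had counts in both libraries, with 22 and 3 on the one of equal coding length and 21 and 1 on Mpc1-003. Mpc1-004 had 15 and 4, and Mpc1-006 had 14 and 3. The isoform with the longest coding sequence had 14 and 4, a log2 ratio of -0.08, and was below the count threshold. The Mpc1 call held with library totals (adjusted exact binomial p = 0.0113). It also held with isoforms summed, at 136 and 18 counts and a log2 ratio of -1.12 (adjusted exact binomial p = 0.0185). That second p is too small where a fragment was counted on several isoforms. With TMM on coding genes alone the Mpc1 call was lost (adjusted exact binomial p = 0.137), as with a coefficient of variation of 0.2 (adjusted p = 0.0556 by edgeR's exact test). Mpc2, its partner, had 18 and 3 counts.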

How the data were processed

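The authors deposited whole-number footprint counts per transcript and replicate, not normalised, with transcript and coding lengths in nucleotides, per the file headers. Trimmomatic 0.36, Bowtie2 2.2.6, SAMtools and the build GRCm38.p4 are named in the submitters' processing notes; the counting rule and annotation release are not given in the sources used here. Fragments of 25 to 35 nucleotides were selected, per the labels' protocols. Totals were 729027 and 225075 over transcripts.

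Per gene the transcript with the highest summed count was kept (the longer in a tie). CPM used TMM factors of 1.07 and 0.931 from edgeR 4.0.16, over genes whose mean count reached 10. Log2 ratios used a pseudocount of 1 CPM. Shares carry 95% Wilson intervals, densities exact Poisson and ratios exact Clopper-Pearson intervals (scipy 1.17.1). Density was given only where the kept transcript is protein coding. Alternatives were library totals, TMM on coding genes, other filters, isoform choices, whole-transcript length, a preset coefficient of variation and each library alone. Members reaching that mean, the 10 densest, called members, pair members and members without counts were named; of other lists, the densest and any called gene, and further genes were named after their values were seen. Members and lists were chosen with earlier results of these data known, and the comparison of near-identical isoforms and the promoter search were added after the table was seen. Symbols matched 36 of 47 members in the promoter table.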

Additional observations from a re-analysis of the deposited data

How the results depend on the processing

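Of 47 members, 10 passed the mean of 10 counts, 18 with isoforms summed, 25 when each library had to hold 1 count or more and 3 with a mean of 50, and 5 to 16 reached 10 counts when each replicate was left out in turn. The family share of 0.324% of coding counts became 0.367% with isoforms summed. The median density past the threshold, 78.7 CPM per kilobase as a mean of the libraries, became 102 with TMM on coding genes alone (whose total excludes other classes), 67.8 with isoforms summed, 37.3 when each library had to hold a count, 322 with a mean of 50 and 43.1 per kilobase of whole transcript. Members differing between the libraries went from 0 to 1 with isoforms summed, and stayed at 0 under the other 6 settings. That 1 was Slc25a22, whose p is too small if a fragment was counted on several of its transcripts. All genes differing went from 225 to 22 with TMM on coding genes, which alone were tested (42 of these 4392 were called before), 605 with isoforms summed (383 higher, 222 lower, against 217 and 8), 75 with a mean of 50 (764 tested) and 131 with the preset coefficient of variation. Library totals gave 199 (176 and 23). Those totals lowered the median log2 ratio of all genes from 0.0041 to -0.20 and turned Slc25a4 from 0.19 to -0.018 and Slc25a11 from 0.13 to -0.070; Slc25a11 also turned to -0.048 when a count in each library was required. Summing isoforms turned Slc25a5 from -0.20 to 0.063 and Slc25a12 from -0.16 to 0.19. Apart from the value of Slc25a22, the other 57 of 63 single-member values kept direction and call. Those under the preset coefficient of variation of 0.2 reuse the main log2 ratios, so their direction could not change, and the added spread makes a call less likely. Where no reason is given, the cause was not tested. No paired analysis was possible because the labels hold a single group.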
